A study of Mus musculus with 1 sample.

Results

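Pou5f1, Lin28a, Sall4, Utf1, Tcl1, Klf4, Dppa4 and Kdm1a, 8 genes linked to pluripotency in embryonic cells or in the germline, were described across the germ cell stages and the somatic cells of the mouse testis at postnatal day (PD) 8. The 8 genes were chosen by symbol, and each was found once among the 27998 genes of the count matrix. The cells came from Wild-type C57BL/6 mice and were enriched for the surface protein THY1, which spermatogonial stem cells (SSCs) carry, with magnetic beads. Unselected testis cells had been added back so that differentiating spermatogonia were included, and somatic cells were present as well. Equal numbers of the enriched cells from 3 mice were pooled, and the pool with the added cells made 1 droplet library. The share of each mouse among the added cells is not stated. With 1 library there was no replicate, no test was possible, and intervals cover counting error only. The mice could not be told apart in the library. The enrichment and the added cells also set the shares of germ and somatic cells, which therefore are not those of the testis. A library from mutant mice in the same study was not analysed here.

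The proteins encoded by these genes fall into a few kinds. Pou5f1 (OCT4), Sall4, Klf4 and Utf1 encode DNA-binding or chromatin-associated regulators of transcription. Lin28a encodes an RNA-binding protein that blocks the maturation of let-7 microRNAs, Tcl1 a co-activator of AKT kinases, Dppa4 a nuclear protein of pluripotent cells, and Kdm1a (LSD1) a histone demethylase that works with CoREST proteins. In the postnatal testis, SSCs self-renew and give rise to progenitor spermatogonia, which together form the undifferentiated spermatogonia. Under retinoic acid, progenitors become KIT+ differentiating spermatogonia that later enter meiosis. Pou5f1 and Klf4 are also known as reprogramming factors.

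The genes lie on 6 chromosomes of GRCm38 (GENCODE M21). Pou5f1 (ENSMUSG00000024406) is at chr17:35506018-35510772 on the plus strand. Lin28a (ENSMUSG00000050966, chr4:134003330-134018841), Kdm1a (ENSMUSG00000036940, chr4:136550540-136602723) and Klf4 (ENSMUSG00000003032, chr4:55527143-55532466) are all on the minus strand of chromosome 4. Sall4 (ENSMUSG00000027547, chr2:168748332-168767943) and Tcl1 (ENSMUSG00000041359, chr12:105216750-105222793) are also on the minus strand. Utf1 (ENSMUSG00000047751, chr7:139943789-139945112) and Dppa4 (ENSMUSG00000058550, chr16:48283733-48294237) are on the plus strand. Antisense genes overlap Pou5f1 (Gm19553), Lin28a (Gm13061), Sall4 (Gm14261) and Kdm1a (Luzp1), and Gm12987 overlaps Kdm1a on the same strand. Of the 50-base stretches in the last 500 bases of each transcript, where 3' reads fall, 1.12% of those of Pou5f1 also occurred in another annotated gene (Gm5712), and none did for the other 7 genes.

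Promoters are shown for 4 of the genes, since the 8 genes later split into those read almost only in germ cells and those also read in somatic cells. Each line gives the 250 bases before the transcript start in RefSeq (GRCm38.p6), 5' to 3' on the gene's strand, with every CG dinucleotide in capitals. The first pair, Pou5f1 (chr17:35505782-35506031, plus strand) and Lin28a (chr4:134018817-134019066, minus strand), was read almost only in germ cells. The second pair, Kdm1a (chr4:136602724-136602973, minus strand) and Klf4 (chr4:55532476-55532725, minus strand), was also read in somatic cells.
Pou5f1: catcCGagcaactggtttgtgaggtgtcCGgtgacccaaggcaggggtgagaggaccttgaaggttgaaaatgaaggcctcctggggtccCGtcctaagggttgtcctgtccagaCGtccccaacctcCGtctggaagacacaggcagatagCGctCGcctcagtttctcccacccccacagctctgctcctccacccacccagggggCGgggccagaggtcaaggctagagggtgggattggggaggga
Lin28a: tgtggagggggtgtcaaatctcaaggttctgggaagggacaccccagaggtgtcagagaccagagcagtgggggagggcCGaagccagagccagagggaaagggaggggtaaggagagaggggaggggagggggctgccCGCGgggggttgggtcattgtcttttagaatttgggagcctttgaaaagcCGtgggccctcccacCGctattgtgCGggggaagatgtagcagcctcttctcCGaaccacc
Kdm1a: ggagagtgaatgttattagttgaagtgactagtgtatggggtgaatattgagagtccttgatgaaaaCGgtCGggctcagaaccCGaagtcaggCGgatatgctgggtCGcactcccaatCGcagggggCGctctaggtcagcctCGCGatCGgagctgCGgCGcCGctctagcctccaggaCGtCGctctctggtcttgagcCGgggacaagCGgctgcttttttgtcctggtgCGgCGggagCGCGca
Klf4: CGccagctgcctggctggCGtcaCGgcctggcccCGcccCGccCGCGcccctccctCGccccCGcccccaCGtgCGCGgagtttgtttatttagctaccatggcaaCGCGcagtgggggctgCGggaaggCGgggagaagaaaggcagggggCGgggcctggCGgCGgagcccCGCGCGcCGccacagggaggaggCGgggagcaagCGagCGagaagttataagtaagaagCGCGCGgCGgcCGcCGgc
These windows held 8 CGs for Pou5f1, 7 for Lin28a, 21 for Kdm1a and 32 for Klf4. RefSeq has another start for Pou5f1, whose window (chr17:35508557-35508806) held 6 CGs and no GGGCGG and is not shown. The start used here lies 14 bases from the gene start in GENCODE M21 and the other 2789 bases. The windows of Tcl1 and Utf1, read almost only in germ cells, held 7 and 14. Over all 32851 promoters of the table the median was 6, with quartiles of 2 and 16, and 95.4% of promoters held fewer CGs than that of Klf4 and 83.7% fewer than that of Kdm1a. The letters GGGCGG (GC box, either strand) were found 4 times for Klf4 and for Utf1, 2 times for Tcl1, once for Pou5f1 and in neither of the windows of Lin28a and Kdm1a, against 32.7% of all promoters with at least 1 match. These counts describe the letters of the windows only, and Sall4 and Dppa4 were not matched in the table.

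Of 970 barcodes, 920 cells were kept, at 2655 to 44915 unique molecular identifiers (UMIs, each counting 1 captured RNA molecule) per cell. No barcode occurred more than once. Unsupervised clusters were named from marker genes, with "-like" to mark that the names were rebuilt here. Germ cells numbered 324, of which 112 were SSC-like, 79 were progenitor-like and the remaining 133 were differentiating-like. The last formed a cluster of 101 led by Kit and Stra8 and a cluster of 32 led by Prss50 and Ly6k. Somatic cells numbered 596, of which 255 were Sertoli-like and 186 stromal-like. The others were 94 cells like peritubular myoid cells, 35 like macrophages and 26 like T cells, the last group with myoid markers in second place. The leading genes of that group included Cd3g, Xcl1 and Gzmc but also Rgs5 and Higd1b, so it may hold more than 1 kind of cell. Germ cells were read more deeply, with a median of 18216.5 UMIs per cell against 8193.5 in somatic cells, so levels are given as UMIs per 1000000 UMIs of the class (CPM). Of the 8 genes, Tcl1 and Dppa4 took part in both clustering steps and Pou5f1 in the step on germ cells, and their differences between germ cell classes are therefore descriptions of classes that they helped to define. With all 8 genes left out of clustering, 321 of the 324 germ cells kept their class. Lin28a, Sall4, Utf1, Klf4 and Kdm1a took no part in either step.

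Of the 8 genes, 6 ( Pou5f1, Lin28a, Sall4, Utf1, Tcl1 and Dppa4) were read almost only in germ cells, and Kdm1a was read in germ cells at a higher level than in somatic cells. Klf4 was the exception and was higher in somatic cells. A gene was called where its CPM differed at least 2-fold with a 95% interval that excluded no change. By that rule, 7 of the 8 genes were higher in germ cells, against 25.0% of the 12989 genes with at least 20 UMIs, and 1 of the 8 was lower, against 28.4%. The median log2 ratio was 5.18 for the 8 genes and 0.04 for all genes. The 8 genes were chosen with earlier results of these data known, so these contrasts are descriptions only.

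**Figure D1:**
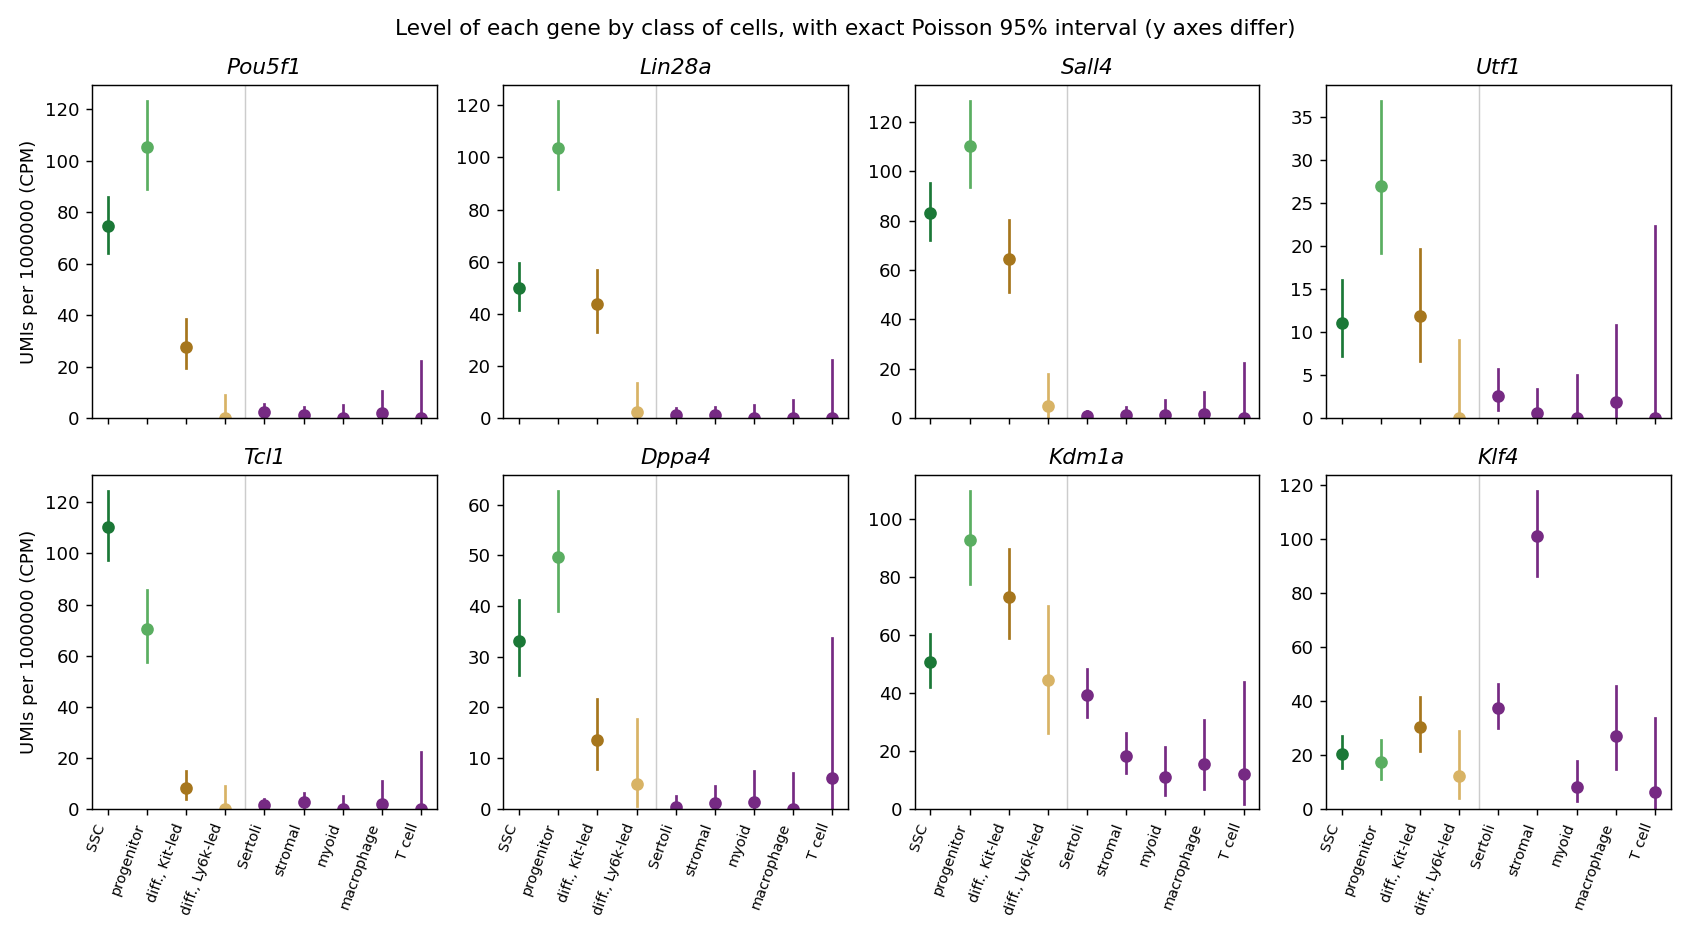
Level of each gene in UMIs per 1000000 (CPM, y axis) in the 4 germ cell classes (left of the line) and 5 somatic classes (right of the line), as points with exact Poisson 95% intervals. The points of Pou5f1, Lin28a, Sall4, Utf1, Tcl1 and Dppa4 lie at 6.06 CPM or less in every somatic class, with wide intervals in T cell-like cells. Klf4 is highest in stromal-like cells, at 101 CPM.

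Pou5f1 was read with 369 UMIs in germ cells (66.4 CPM) and 9 UMIs in somatic cells (1.68 CPM), a 39.6-fold difference (95% interval 20.6 to 87.2). Lin28a was at 59.1 CPM in germ cells and 0.933 CPM in somatic cells (63.3-fold, 26.8 to 196), and Sall4, a zinc finger factor needed for spermatogonial differentiation, at 80.1 and 1.12 CPM (71.5-fold, 32.6 to 196). Tcl1 was at 68.8 and 1.49 CPM (46.1-fold, 23.1 to 108) and Dppa4 at 31.0 and 0.933 CPM (33.2-fold). Utf1 had the fewest UMIs, 81 in germ cells and 8 in somatic cells, and its fold of 9.77 (4.73 to 23.4) was the smallest of these 6 genes. In a Sertoli-like cluster led by 8030411F24Rik, Utf1 had 5 UMIs in 4 of 78 cells (7.24 CPM, 2.35 to 16.9). That interval overlaps the one of Utf1 in SSC-like cells (7.28 to 16.1). The germ cell markers Ddx4, Dazl, Sohlh1, Taf4b and Tdrd1, which served to name germ cells, had folds between 10.2 (Taf4b) and 53.7 (Dazl) with a median of 40.0. Pou5f1, Tcl1 and Dppa4 lay within that range, Lin28a and Sall4 above it and Utf1 just below it. Whether the somatic UMIs came from somatic cells or from free RNA was not tested.

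Within germ cells, all of the 6 genes except Tcl1 had their highest level in progenitor-like cells. Pou5f1 was at 74.4 CPM among SSC-like cells (64.0 to 86.1), 105 CPM among progenitor-like cells (89.1 to 123) and 27.8 CPM in the Kit-led differentiating-like cells (19.4 to 38.7). In the 32 Ly6k-led cells it had 0 UMIs, which allows up to 7.39 CPM. The order was thus progenitor-like, SSC-like, Kit-led and Ly6k-led, and neighbours in it had intervals that did not overlap. However, the step between progenitor-like and SSC-like cells did not hold under every clustering, as given with the ratios of these classes. The Kit-led level also joins cells of unlike depth, described further below, between which Pou5f1 differed 4.08-fold. Of the 35 Kit-led UMIs, 7 came from 1 cell, without which the level was 22.9 CPM. Lin28a was at 49.9 CPM among SSC-like, 104 CPM among progenitor-like, 43.7 CPM in Kit-led and 2.46 CPM (1 UMI) in Ly6k-led cells. For this gene the SSC-like and Kit-led levels had overlapping intervals. Sall4 was at 83, 110 and 64.4 CPM among SSC-like, progenitor-like and Kit-led cells and at 4.92 CPM (2 UMIs) in Ly6k-led cells. Utf1, a chromatin-associated protein, peaked in progenitor-like cells at 27.0 CPM and was at 11 and 11.9 CPM among SSC-like and Kit-led cells, with 0 UMIs in Ly6k-led cells.

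Tcl1 was the only one of these 6 genes with its highest level in SSC-like cells. It had 270 UMIs there (110 CPM), 102 in progenitor-like cells (70.5 CPM), 10 in Kit-led cells (7.95 CPM) and 0 in Ly6k-led cells. Dppa4 was at 33.1 CPM among SSC-like cells, 49.8 CPM among progenitor-like cells, 13.5 CPM in Kit-led cells and 4.92 CPM (2 UMIs) in Ly6k-led cells. The last of these values rests on too few UMIs to be told from the Kit-led level.

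Between undifferentiated spermatogonia (SSC-like and progenitor-like cells together, 191 cells) and differentiating-like cells, Tcl1 differed most. Its level was 15.9-fold higher in the undifferentiated cells (8.55 to 33.4), followed by Pou5f1 (4.08-fold, 2.88 to 5.96), Dppa4 (3.44-fold) and Lin28a (2.08-fold, 1.55 to 2.82). These 4 of the 8 genes were called higher, against 8.57% of 10519 genes, and none was called lower, against 7.56%. The call of Lin28a was at the edge of the threshold and was lost under 6 of the 14 alternatives that gave it an interval, its fold lying between 1.86 and 2.22 over them, while Pou5f1, Tcl1 and Dppa4 were called under every one. Not all alternatives were distinct. Keeping called doublets or using Leiden clustering repeated the main ratios between germ cell classes. A limit of at least 1000 genes and leaving out 1 hemoglobin-rich barcode gave ratios equal to each other. Counts of alternatives here and below hold these repeats. Against the 50 Kit-led cells left without a shallow group described with that cluster, Lin28a was 1.42-fold higher (1.05 to 1.97). Only Pou5f1, Tcl1 and Dppa4 were called higher there, 3 of the 8 genes against 6.85% of 10251 genes. None was called lower, against 7.19%. Sall4 (1.86-fold) and Utf1 (1.88-fold, 1.06 to 3.55) lay under 2-fold with intervals above no change, and were called under 2 of 15 and 3 of 14 alternatives. Kdm1a did not differ by more than counting error, at a ratio of 1.0 (0.799 to 1.27), and the ratio of Klf4 was 0.746 (0.506 to 1.11). The Kdm1a ratio joins unlike classes. Over Kit-led cells it was 0.693 (0.525 to 0.918) for SSC-like and 1.27 (0.964 to 1.67) for progenitor-like cells. Against the 50 Kit-led cells without the shallow group, Kdm1a was at 0.779 (0.607 to 1.01) and Klf4 at 0.583 (0.382 to 0.907). The median log2 ratio was 0.98 for the 8 genes and -0.09 for all genes.

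Between SSC-like and progenitor-like cells, the only gene with a higher level in SSC-like cells beyond its interval was Tcl1 (1.57-fold, 1.24 to 1.99), which did not reach 2-fold. None of the 8 genes was called higher in SSC-like cells, against 4.82% of 9586 genes, but Tcl1 was called under 5 of 15 alternatives, at up to 3.26-fold. Lin28a, with a ratio of 0.481 (0.376 to 0.615), and Utf1, with a ratio of 0.41 (0.241 to 0.686), were called lower, 2 of the 8 genes against 2.47% of all genes, and each kept the call under 14 of 15 alternatives. These 15 include the repeats named above. Pou5f1 (0.708), Sall4 (0.755), Dppa4 (0.665) and Kdm1a (0.547) also had ratios below 1 with intervals that excluded no change. For Pou5f1 the interval reached no change under 6 of 15 alternatives, among them clustering without the 8 genes (log2 ratio -0.30) and leaving out 1 hemoglobin-rich barcode (-0.32), and for Dppa4 under 3. Klf4 was at 1.18 (0.718 to 2.0). The boundary between these 2 classes moved with the clustering, and at a finer resolution Dppa4 changed direction.

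**Figure D2:**
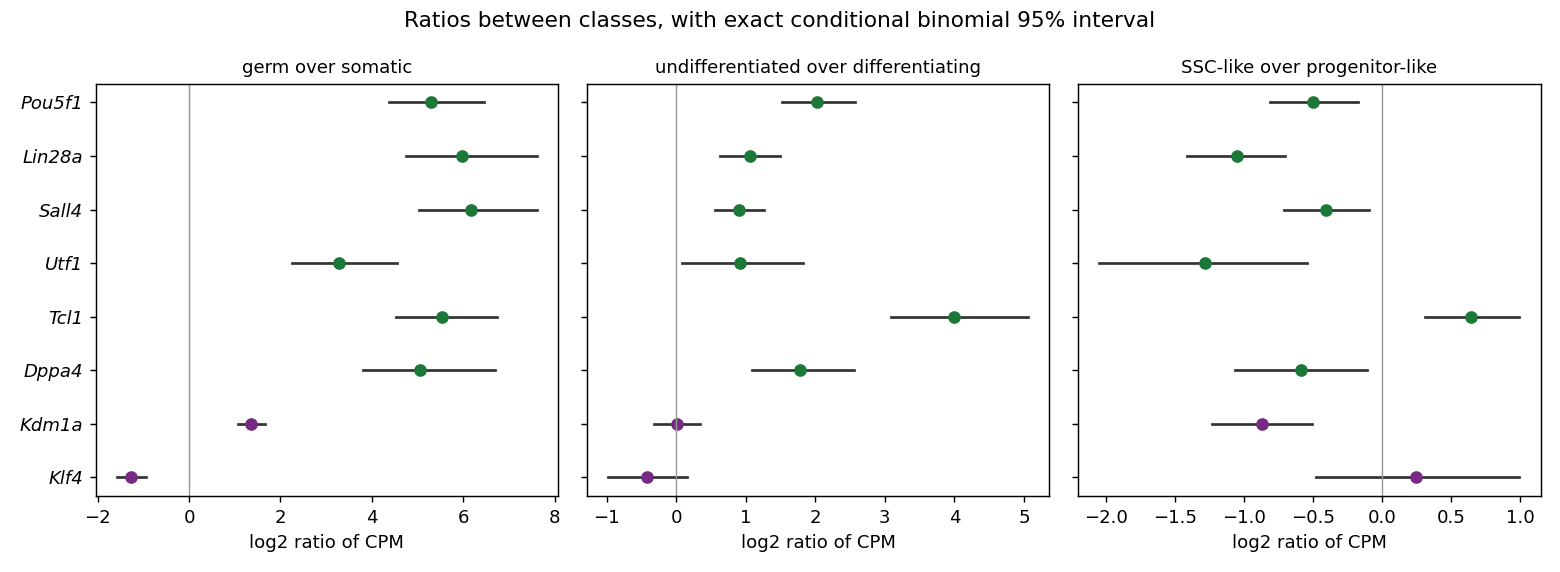
Log2 ratio of CPM (x axis) for each gene (y axis) in the comparisons of germ over somatic cells, undifferentiated over differentiating-like cells and SSC-like over progenitor-like cells, with exact conditional binomial 95% intervals as bars; green points are the 6 genes read almost only in germ cells. Tcl1 lies farthest right in the middle panel and is the only green point right of 0 in the last one.

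Within the differentiating-like cells, 3 of the genes were called higher in the Kit-led than in the Ly6k-led cluster. Of the 8 genes, 5 had the 20 UMIs needed, and Pou5f1 (at least 3.77-fold, with 3 UMIs as the floor for the cluster at 0), Lin28a (17.8-fold, 3.06 to 714) and Sall4 (13.1-fold, 3.51 to 110) were the ones called, against 9.40% of 7338 genes. None was called lower, against 8.95%. Kdm1a was read in both clusters, at 73.2 CPM in Kit-led and 44.3 CPM in Ly6k-led cells (1.65-fold, 0.989 to 2.91), and Klf4 at 30.2 and 12.3 CPM. Of the 6 germ cell markers, Ddx4, Dazl and Taf4b were at 137, 949 and 43.7 CPM in Kit-led and at 103, 1137 and 56.6 CPM in Ly6k-led cells. The other markers, Sohlh1, Tdrd1 and Zbtb16, were at 324, 39.0 and 50.1 CPM in Kit-led and at 116, 9.85 and 9.85 CPM in Ly6k-led cells. Some germ cell markers were thus lower in Ly6k-led cells, as Pou5f1, Lin28a and Sall4 were, and others were not.

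The Kit-led cluster held cells of unlike depth. In it, 51 cells came from a cluster that stood apart when all cells were clustered, with a median of 4079 UMIs, and the other 50 cells had a median of 20269. Pou5f1 was at 69.4 CPM in the shallow cells (18 UMIs) and 17.0 CPM in the others (17 UMIs), a 4.08-fold difference (1.98 to 8.42). Kdm1a went the opposite way, at 27.0 CPM in the shallow cells and 85.1 CPM in the others. The Pou5f1 interval of the shallow cells (41.2 to 110) overlapped that of SSC-like cells (64.0 to 86.1). In the shallow cells, 5 of the 18 Pou5f1 UMIs were in 1 cell, without which the level was 52.1 CPM. In the others, 7 of the 17 Pou5f1 UMIs were in 1 cell, without which the level was 10.4 CPM. Mitochondrial UMIs were 2.85% in the shallow cells and 6.98% in the others, and the part of depth in these differences was not tested. Without the shallow cells the log2 ratio of Pou5f1 between undifferentiated and differentiating-like cells rose from 2.03 to 2.82.

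Detection per cell split the genes between germ and somatic cells as the levels did, but not always between the germ cell classes. At full depth Pou5f1 was found in 71.4% of SSC-like and 67.1% of progenitor-like cells and Sall4 in 78.6% and 74.7%, the reverse of their order in CPM, and at equal depth (defined next) the order was that of the CPM, with 30.4% and 35.5% for Pou5f1 and 32.5% and 40.1% for Sall4. A UMI of Sall4 was found in 58.0% of germ cells and 1.01% of somatic cells, and one of Pou5f1 in 47.2% and 1.51%. Since germ cells were deeper, the share expected with 5000 UMIs drawn from each cell was also computed, leaving out 45 germ and 48 somatic cells below that depth. At equal depth the shares were 28.9% and 0.563% for Sall4, 23.2% and 0.973% for Pou5f1, 21.7% and 0.661% for Tcl1, and 13.5% and 0.540% for Dppa4. The gap between germ and somatic cells thus remained at equal depth. For Kdm1a the shares were 26.6% and 10.9% at equal depth. For Klf4 the order was the opposite, with 9.40% of germ cells and 19.4% of somatic cells at equal depth. At full depth the Klf4 shares were close, 25.0% and 27.3%.

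**Figure D3:**
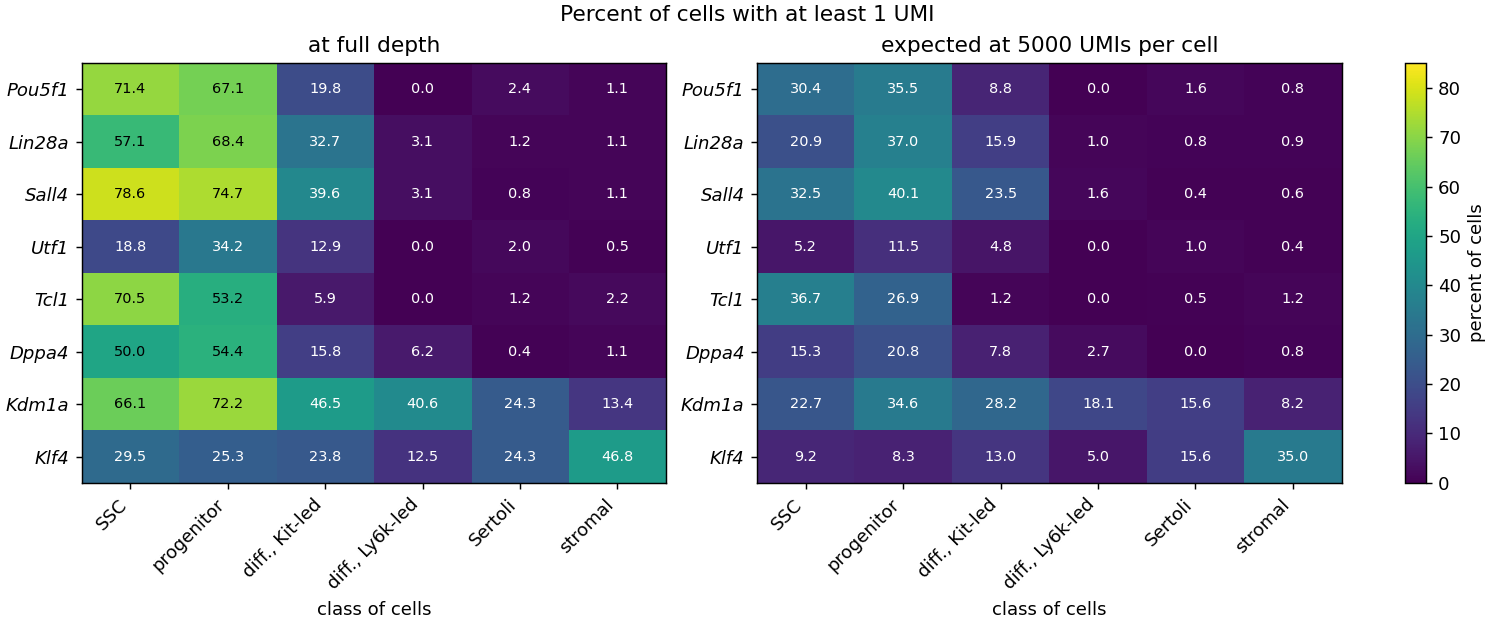
Percent of cells with at least 1 UMI of each gene (rows) in 6 classes (columns), at full depth (left) and computed for 5000 UMIs drawn per cell (right); colour and printed number both give the percent. At equal depth Tcl1 is most often read in SSC-like cells (36.7%) and Klf4 in stromal-like cells (35.0%).

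Most undifferentiated spermatogonia held UMIs of several of the 6 genes read almost only in germ cells, but few held all 6. All 6 had a UMI in 3 of 112 SSC-like and 5 of 79 progenitor-like cells. At least 3 of the 6 had a UMI in 151 of 191 undifferentiated cells (79.1%), and 7 of these cells had none. In the Kit-led cluster 15 of 101 cells had at least 3 and 30 had none. In the Ly6k-led cluster 28 of 32 cells had none of the 6 (87.5%), near the 558 of 596 somatic cells with none (93.6%). Lin28a and Sall4 were both read in 95 of the 191 undifferentiated cells, and Pou5f1 and Tcl1 in 88. Taken singly, Lin28a was read in 61.8%, Sall4 in 77.0%, Pou5f1 in 69.6% and Tcl1 in 63.4% of these cells. Whether the pairs were read more often than these separate shares would give was not tested. In the Kit-led cluster the pair of Pou5f1 and Tcl1 was read in 1 cell. Depth differed between these classes, with medians of 20155 UMIs in undifferentiated, 8530 in Kit-led and 12208 in Ly6k-led cells, and its part in the counts was not tested.

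**Figure D4:**
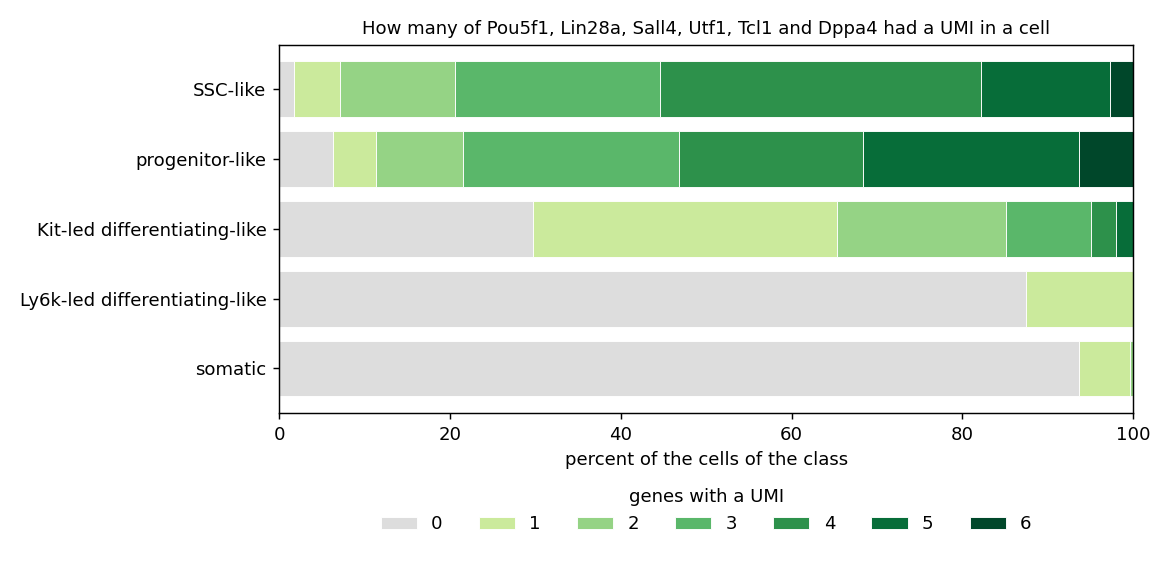
Percent of cells (x axis) in each of 4 germ cell classes and the somatic cells (y axis) by how many of Pou5f1, Lin28a, Sall4, Utf1, Tcl1 and Dppa4 had at least 1 UMI in the cell, from 0 (grey) to 6 (darkest). Cells with none make up 1.79% of SSC-like, 29.7% of Kit-led, 87.5% of Ly6k-led and 93.6% of somatic cells.

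Klf4, a zinc finger factor of epithelial, stromal and pluripotent cells, was highest in stromal-like cells. It had 166 UMIs there (101 CPM, interval 86.3 to 118), 86 in Sertoli-like cells (37.5 CPM), 14 in macrophage-like cells (27.1 CPM) and 6 in peritubular myoid-like cells (8.10 CPM). In germ cells it ranged from 12.3 CPM (5 UMIs, Ly6k-led) to 30.2 CPM (Kit-led). Stromal-like cells were 4.76-fold above all germ cells (3.74 to 6.08) and 2.70-fold above Sertoli-like cells (2.07 to 3.54), and Sertoli-like cells were 4.62-fold above myoid-like cells (2.04 to 13). Fos and Jun, which belong to the immediate early genes that rise when tissue is dissociated, were also higher in somatic cells. They do not stand for all such genes, as Egr4 was at 244 CPM among SSC-like and 1.22 CPM in stromal-like cells. Fos was at 11.2 CPM in germ, 281 CPM in stromal-like, 319 CPM in Sertoli-like and 350 CPM in myoid-like cells, and Jun at 13.9, 183, 344 and 344 CPM. The myoid-like cells thus had the highest Fos of these 4 classes with the lowest Klf4, and the part of dissociation in the Klf4 levels was not tested.

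Kdm1a was read in every class. It was at 92.7 CPM among progenitor-like cells, 73.2 CPM in Kit-led cells and 50.7 CPM among SSC-like cells, and at 44.3 CPM in Ly6k-led cells on 18 UMIs. Among somatic cells it was highest in Sertoli-like cells at 39.2 CPM, 2.15-fold above stromal-like cells (1.41 to 3.36). Germ cells as a whole were 2.57-fold above somatic cells (2.11 to 3.15) and 1.69-fold above Sertoli-like cells (1.34 to 2.15). Among the 3 Sertoli-like clusters, Kdm1a was at 66.1 CPM (44.9 to 93.8, 31 UMIs) in that led by Lockd. It was at 36.2 CPM (23.4 to 53.5) in that led by 8030411F24Rik and 29.9 CPM (20.7 to 41.8) in that led by Spata21. The Lockd-led value was near the germ cell level of 66.2 CPM, but its interval overlapped that of the cluster led by 8030411F24Rik.

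Related genes were described from 8 lists of 69 genes in all, and several paralogs had a pattern unlike that of the member of their family. Counts of these lists between germ and somatic cells stand against 25.0% of all genes called higher and 28.4% called lower, and where the shares are near these they say nothing particular about a list. Among 5 other POU factors, 3 were called higher in germ cells and none lower. Pou3f1, a POU factor of neural and germ cells, was at 48.1 CPM in germ cells and 0.373 CPM in somatic cells, but did not share the difference of Pou5f1 between stages, with 53.2 CPM among SSC-like, 38.0 CPM among progenitor-like and 61.2 CPM in Kit-led cells. Of the 9 tested genes around LIN28 and let-7, 4 were higher in germ cells (Lin28b, Trim71, Hmga1 and Igf2bp1) and 2 lower (Zcchc6 and Dis3l2), the latter near the share over all genes. Lin28b ran against its paralog Lin28a, at 10.6 CPM among SSC-like, 11.1 CPM among progenitor-like, 19.9 CPM in Kit-led and 27.1 CPM in Ly6k-led cells, and its ratio of undifferentiated over differentiating-like cells was 0.499 (0.312 to 0.801). Trim71, a let-7 target and RNA-binding ubiquitin ligase, was at 81.0, 89.9, 43.7 and 2.46 CPM in the same 4 classes.

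Of the SALL paralogs, Sall1 and Sall3 were called higher in germ cells and Sall2 lower. Sall1 was at 12.6 CPM in germ cells, and Sall3 had 35 UMIs, all of them in undifferentiated spermatogonia. Sall2 was read mainly in Sertoli-like cells, at 17.4 CPM against 1.26 CPM in germ cells. Zbtb16 (PLZF), which binds SALL4 and also served as a germ cell marker here, followed Sall4 at 110, 187, 50.1 and 9.85 CPM among SSC-like, progenitor-like, Kit-led and Ly6k-led cells. Among DPPA genes, Dppa5a was called higher in germ cells (38.7 against 0.746 CPM) and stayed at 42.1 CPM in Kit-led cells, unlike Dppa4. Dppa3 had 14 of its 16 germ cell UMIs in Kit-led cells, Dppa2 had 10 UMIs, all in undifferentiated cells, and Dppa1 had none. Of the TCL1 family, Tcl1b1, Tcl1b3, Tcl1b4 and Tcl1b5 had no UMI in the library. Akt1, a kinase that TCL1 proteins bind, was called lower in germ cells (25.2 against 64.2 CPM).

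Of 12 genes of the CoREST complex and KDM1B, 3 were called higher in germ cells (Kdm1b, Rcor2 and Gse1) and 3 lower (Rcor1, Rcor3 and Hmg20b). Both counts are near the shares over all genes. Rcor2 was at 44.8 CPM in germ cells and 2.99 CPM in somatic cells, a 15-fold difference, and Rcor1 was at 3.42 CPM in germ cells and 27.2 CPM in somatic cells. Of 10 other KLF factors, 2 were higher in germ cells (Klf7 and Klf10) and 4 lower (Klf2, Klf3, Klf6 and Klf15), again near the shares over all genes. Klf6 was at 15.8 CPM in germ cells and 113 CPM in somatic cells, and Klf7 was at 122 CPM in undifferentiated and 41.5 CPM in differentiating-like cells.

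Of 17 other genes of the embryonic pluripotency network, 9 had enough UMIs to be compared between germ and somatic cells, 4 being higher in germ cells (Tfcp2l1, Zfp42, Nr5a2 and Fbxo15) and 3 lower (Klf2, Nr0b1 and Tet1), the latter near the share over all genes. Nanog, the homeobox factor of naive pluripotency, had 0 of 5555070 UMIs in germ cells, which is 0.540 CPM at a floor of 3 UMIs. It had 1 UMI in a stromal-like cell. Sox2, the partner of OCT4, had 3 UMIs in germ cells. Zfp42 (REX1) was the most read of those higher in germ cells, at 29.0 CPM in germ and 0.746 CPM in somatic cells, with 34.8 CPM among SSC-like and 34.6 CPM among progenitor-like cells. Nr5a2 was called higher in SSC-like than in progenitor-like cells (2.96-fold, 1.29 to 7.89).

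The genes most like each member across the 9 classes were found by Pearson's r of log2(CPM + 10) over 9072 genes with at least 100 UMIs. With 9 points that share 1 library and classes made from the same counts, these values are descriptions only. Pou5f1 was most like Egr4 (0.995), Asphd2 (0.994) and Platr3 (0.993). Lin28a was most like Capsl (0.996) and Lgals2 (0.994), with Sall4 next (0.991), and Tcl1 was most like Egr2 (0.993), Ret (0.990) and Gfra1 (0.986). Ret and Gfra1 encode the receptor for GDNF, the growth factor of SSCs. Dppa4 was most like Zbtb16 (0.986). For Klf4 the likeness was lower, with Acadm at 0.882. Utf1 had too few UMIs to be included.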

How the data were processed

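Per the labels and methods, the authors prepared 1 library from Wild-type mice with the Chromium system (v2 chemistry), processed it with Cell Ranger 2.1.0 against mm10, and deposited a filtered matrix of UMI counts per gene and barcode. Genes with poorly annotated 3' ends can be undercounted in such a matrix, and the gene annotation release is not given in the sources used here.

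Barcodes with under 500 genes (10), at least 10% mitochondrial UMIs (36) or called by scrublet (scanpy 1.11.5) as doublets at an expected rate of 0.01 (4) were removed. Cells were clustered in Seurat 5.3.0 (R 4.3.3) after log-normalization to 10000 UMIs, with mean.var.plot variable genes, 14 principal components and resolution 0.5, and germ cells were clustered again. Clusters were named by the marker list whose mean log-normalized level lay highest above that in the other cells. A cluster stayed unnamed with under 3 markers detected in 10% of cells, or if another list held more of its 10 leading genes. It also stayed unnamed if its median depth was more than 3-fold below that of all cells clustered and no leading gene was in its list. UMIs were summed per class. CPM have exact Poisson, ratios exact conditional binomial and shares exact binomial 95% intervals. PCR duplicates were collapsed by UMI. A count of 0 was given a floor of 3 counts. Scripts were tested on simulated data. Coordinates are from GENCODE M21 and promoters from RefSeq, of which 6 of 8 members were matched.

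The named genes were the 8 members, the listed related genes and the 3 genes most alike in pattern. 1 listed gene is not reported here. The members and lists were chosen with earlier results of these data known. Alternatives for filters, variable genes, components, resolution, clustering method, cell selection, denominator and weighting were computed (18 planned, 1 added after seeing the data).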

Additional observations from a re-analysis of the deposited data

Results flagged for a closer look

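The 50 barcodes removed by the filters are outside every comparison above and still held UMIs of the genes, which is why they are listed here. They held 444043 UMIs, with 4 of Pou5f1, 8 of Lin28a, 21 of Sall4, 5 of Utf1, 11 of Tcl1, 20 of Klf4, 8 of Dppa4 and 15 of Kdm1a. Most came from the 36 barcodes with at least 10% mitochondrial UMIs, where Sall4 was at 65.1 CPM (19 UMIs) and the germ cell gene Ddx4 at 95.9 CPM. The 10 barcodes with under 500 genes held none of the 8 genes. The 4 called doublets held 4 UMIs of Tcl1, 3 of Klf4 and 2 of Sall4.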

How the results depend on the processing

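No paired analysis was possible because the cells come from a single library. Of 460 values under 19 alternatives, 406 stayed within the counting interval, 53 moved and 1 reversed, and the cause was not tested in any case. Some of the 406 are repeats. Keeping called doublets and Leiden clustering left the ratios between germ cell classes as in the main setting. At least 1000 genes and leaving out the hemoglobin-rich barcode gave equal ratios. Log2 ratios of germ over somatic cells moved in 4 of 144 cases, all with a mitochondrial limit of 5%: Sall4 4.68, Utf1 4.55, Tcl1 4.48 and Klf4 -2.58. That limit left all 3 stage shares at 0%, and resolution 0.3 left SSC-like and progenitor-like at 0%, so neither gave ratios between SSC-like and progenitor-like cells. For undifferentiated over differentiating-like cells the values were Sall4 4.13, Klf4 0.56, Dppa4 2.86 and Kdm1a 0.64 with at least 200 genes per cell, Pou5f1 2.96 and Tcl1 5.53 at resolution 1.2, Tcl1 2.95 with germ cells chosen by a UMI of Ddx4 or Dazl, and Pou5f1 1.48, Tcl1 2.69 and Kdm1a 0.50 as a mean over cells. Without the low-depth germ cells, an alternative chosen after seeing the data, Pou5f1 was 2.82. For SSC-like over progenitor-like cells, Tcl1 was 1.71 with no mitochondrial limit, 1.62 with vst variable genes, 1.15 with 20 components, 1.26 at resolution 1.2 and 1.11 with the UMI selection. Sall4 was -0.81 with 20 components and -1.12 with the UMI selection, and Dppa4 was -0.019 with vst and reversed to 0.086 at resolution 1.2. Shares of germ cells in SSC-like, progenitor-like and differentiating-like classes were 50.2%, 35.3% and 14.5% with at least 200 genes and 13.9%, 42.6% and 27.2% at resolution 1.2. Both the setting of at least 200 genes and the mitochondrial limit of 5% left fewer cells named germ cells than the 324 of the main setting. Their values therefore do not describe the same cells. At resolution 1.2 and with the UMI selection, the 3 stage shares do not cover all germ cells. The remaining germ cells were in clusters that stayed unnamed and are outside the ratios between stages. SSC-like shares were 24.0%, 19.8%, 23.8% and 40.8% with 20 components, the UMI selection, the count split and without low-depth germ cells. Progenitor-like shares were 19.1% with no mitochondrial limit, 34.4% with 20 components and 36.2% with the count split. Differentiating-like shares were 34.9% with the UMI selection and 31.3% without low-depth germ cells. At 5000 UMIs per cell, the germ cell shares were 23.2% for Pou5f1, 21.7% for Lin28a, 28.9% for Sall4, 6.14% for Utf1, 21.7% for Tcl1, 9.40% for Klf4, 13.5% for Dppa4 and 26.6% for Kdm1a, and the somatic shares 19.4% for Klf4 and 10.9% for Kdm1a. Leaving out replicates was not possible with 1 library. Depth limits Utf1 and every value in the Ly6k-led and T cell-like cells.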
